A study of Homo sapiens with 14 samples.

Results

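The cytosolic ribosome is built from a small 40S and a large 60S subunit, each made of ribosomal RNA and many ribosomal proteins that are present in 1 copy per ribosome or nearly so. The genes of these proteins are among the most abundantly transcribed of any cell, and their mRNAs carry a 5′ terminal oligopyrimidine (TOP) tract, a run of C and T bases at the very start of the transcript, through which the kinase mTOR and the RNA-binding protein LARP1 set their translation. Cells that divide fast make many ribosomes, whereas the endocrine β cell of the pancreas divides rarely and devotes much of its translation to insulin. Some ribosomal proteins have a second gene with a closely related product, such as RPL22L1 beside RPL22, and such pairs are known to differ in where they are expressed.

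Genes were taken as members when they were annotated as protein-coding and their symbol had the form RPL or RPS followed by a number with an optional A, X or L suffix, or was RPLP0, RPLP1, RPLP2 or RPSA. This found 84 genes of the 60624 listed in each library, of which 32 encode proteins of the 40S subunit and 52 proteins of the 60S subunit.

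RNA sequencing libraries of the human embryonic stem cell line MEL1 (MEL1 INS GFP/W in the study's methods, with a GFP reporter at 1 INS allele) and of cells derived from it were analysed, 14 libraries in 9 groups named by their titles. Undifferentiated cells (hPSC), definitive endoderm (DE), pancreatic progenitors made by stepwise differentiation (PP2) and β-like cells reached from stem cells without an expansion step (SC-β) had 1 library each, and the labels place all of them in batch 1. Expandable pancreatic progenitors (ePPs) at passage 9 (ePP-P9) and passage 21 (ePP-P21) and β-like cells made from ePPs (ePP-β) had 2 libraries each, in batch 2. Batch 3 held 2 libraries each of pancreatic progenitors given the solvent alone (DMSO) or I-BET151 at 1 μM for 7 days, a drug that keeps bromodomain proteins from binding acetylated histones. According to the study's methods, stem cells grew on CF1 feeder cells and ePPs on feeder cells, and the ePP medium itself contained I-BET151 together with EGF, bFGF and a TGFβ receptor inhibitor, so the ePP groups also carried the drug. In those methods the media of the last differentiation steps to β-like cells list no I-BET151, EGF or bFGF, but other additives such as forskolin. MEL1 is 1 line, and all groups derive from it. The labels do not say that replicates were separate cultures, so p-values measure only the spread between these libraries.

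The values are TPM, a share of each library corrected for transcript length, and such a share can change because other RNAs changed. TPM keeps no read depth, so the depth is unknown and no counting interval can be given. Of the stage markers, POU5F1 was highest in hPSC at 3401 TPM, SOX17 in DE at 1140 TPM, and PDX1 in PP2 at 251 TPM. NANOG and SOX2 were also highest in hPSC and FOXA2 in PP2. CXCR4, the other definitive endoderm marker, stood at 105 TPM in DE but at 147 and 226 TPM in ePP-β. SOX9, a progenitor marker, stood at 107 TPM in PP2 and reached 175 TPM in I-BET151 replicate 1. The progenitor marker NKX6-1 stood at only 23.5 TPM in PP2, below the 51.5 to 446 TPM of the ePP, DMSO and I-BET151 libraries. INS stood at 10916 and 17374 TPM in ePP-β and 20658 TPM in SC-β, and GCG, which encodes glucagon, at 14107 and 13360 TPM in ePP-β and 74281 TPM in SC-β, so GCG exceeded INS in SC-β and in ePP-β replicate 1. The 12 stage markers together took 4.54% and 4.90% of the listed TPM in the ePP-β libraries and 11.9% in SC-β. A list of 12 fibroblast and mesenchyme markers summed to 1587 TPM in PP2 and 2879 TPM in SC-β, with 11 of 12 at 1 TPM or more in each, and to between 47.7 and 95.4 TPM in the ePP and ePP-β libraries. The levels of these other-cell markers thus differed between groups, and in bulk samples fewer cells of a type and less RNA per cell cannot be told apart.

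Transcript starts are shown first because members share a feature there that the choice by symbol did not use. A start was counted as carrying the TOP motif when its first base was C and at least 4 further bases were each C or T, read on the gene's own strand. Windows of 26 bases, 8 before the start and 18 from it, were read from the RefSeq promoter table (GRCh38.p14), which held 67 of the 84 members. At least 1 annotated start had the motif in 47 of these 67 genes (70.1%), against 923 of 15258 other protein-coding genes (6.05%). The run of C and T had a median of 8 bases and a range of 5 to 19. In the windows below, capitals mark the run of C and T that begins at the start, and windows without capitals have none. They show RPS27, the highest member, and RPLP1, which fell strongly in ePP-β, beside genes of the paralogue pairs described further on.
RPS27, chr1:153990754-153990779, plus strand: ctttcgctCCTTTCCggcggtgacga
RPS27L, chr15:63157460-63157485, minus strand: tgccgagcgcagatcgcttgcagctt
RPL26, chr17:8383176-8383201, minus strand: gtgtagttCTCTTCCCTTTTgcggcc
RPL26L1, chr5:172958721-172958746, plus strand: caggggtcggcgaacgaaacgcggag
RPL22, chr1:6199578-6199603, minus strand: ctcacctcCCTTTCTaactccgctgc
RPL22L1, chr3:170870178-170870203, minus strand: gtagcttcCTCTCTgctctcgcggcc
RPL7L1, chr6:42879608-42879633, plus strand: gcggcgccgtagctaggagcggacgc
RPLP1, chr15:69452810-69452835, plus strand: cgcgagagCCCCTTTCCTCagctgcc

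The run began at the start of RPS27, RPL26, RPL22 and RPLP1, whereas of the second genes of pairs in the table only RPL22L1 had it, 1 of 5. Of the other members in the table, 46 of 62 (74.2%) had the motif. In a list of translation factors and partners known as TOP mRNAs, 12 of 14 genes (85.7%) had it, and among mitochondrial ribosomal protein genes 6 of 69 (8.7%). A match is a description of the letters at an annotated start and does not show which start these cells used.

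The 84 genes together took between 9.76% and 27.8% of the listed TPM. In hPSC the summed share was 20.8%, in DE 21.4%, in PP2 10.9% and in SC-β 9.76%. The ePP-P9 libraries stood at 23.2% and 21.8%, the ePP-P21 libraries at 20.7% and 19.7%, and the ePP-β libraries at 15.9% and 14.8%. The highest and the most uneven values were in batch 3, at 20.3% and 27.8% in DMSO and 16.7% and 27.7% in I-BET151.

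Replicates lay close together in batch 2, with means of 22.5% ± 0.977 for ePP-P9, 20.2% ± 0.745 for ePP-P21 and 15.3% ± 0.788 for ePP-β (SD, n = 2 each). All 4 ePP libraries lay above both ePP-β libraries, a gap of 6.02 percentage points between the means. In batch 3 the means were 24.0% ± 5.31 for DMSO and 22.2% ± 7.75 for I-BET151 (SD, n = 2 each), so the difference of -1.82 points was smaller than the spread within either group. Both second replicates stood above both first replicates, whatever the treatment.

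The hormone transcripts of the β-like groups enter the same total, so the share was also taken over the TPM outside the 12 stage markers. It was then 16.6% and 15.5% in ePP-β, still below the 19.7% to 23.2% of the ePP libraries. In SC-β it was 11.1%, beside 10.9% in PP2, so the order of these 2 libraries turned. This denominator was chosen after the values were seen.

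**Figure D1:**
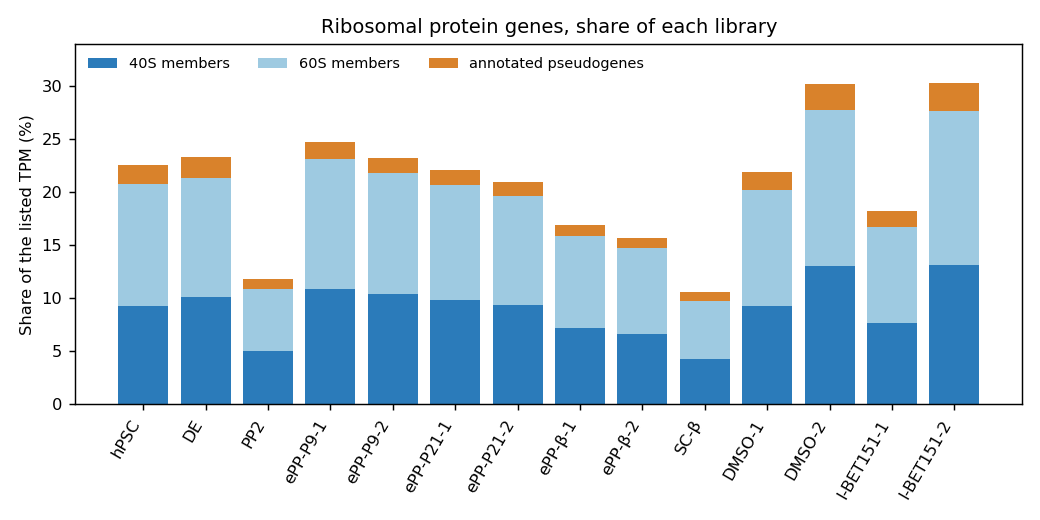
Summed share of the listed TPM per library (y axis, percent) for the 14 libraries in group order (x axis), stacked as 40S members, 60S members and their annotated pseudogenes. PP2 and SC-β are the lowest bars, and the second replicates of DMSO and I-BET151 the highest.

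The 60S members carried more TPM than the 40S members in every library. The ratio of the 60S sum to the 40S sum ranged from 1.09 in ePP-P21 to 1.30 in SC-β. It was 1.13 and 1.10 in ePP-P9, 1.10 and 1.09 in ePP-P21, and 1.21 and 1.22 in ePP-β, so the ePP and ePP-β libraries did not overlap. In batch 3 the first replicates stood at 1.18 in both groups and the second replicates at 1.12 and 1.10. Annotated pseudogenes of the members added between 0.885% and 2.64% of the TPM.

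Individual members differed in level by orders of magnitude. The highest was RPS27, a 40S protein with a zinc finger, at a mean of 7322 TPM over the 9 group means and between 3692 TPM in PP2 and 18458 TPM in I-BET151 replicate 2. RPL41, which encodes a very short basic 60S peptide, followed at 6851 TPM (4295 to 13069 TPM). RPL13A, a 60S protein also known for a role in translational repression by interferon, was the third at 5588 TPM (3627 to 7734 TPM). All 3 were lowest in PP2, and RPS27 and RPL41 were highest in I-BET151 replicate 2.

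At the other end stood the second genes of the pairs. RPL3L, known as the skeletal and cardiac muscle form of RPL3, had a mean of 0.106 TPM and at most 0.428 TPM in a library, and was listed at 0 in 3 libraries. RPL10L, known from testis, had a mean of 0.0566 TPM and was listed at 0 in 10 libraries. Outside these second genes all 77 members exceeded 50 TPM in each of the 14 libraries, the lowest value being 85.5 TPM for RPL37 in SC-β, and 76 members of the 84 exceeded 100 TPM in all 14. The median over members was 2007 TPM.

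**Figure D2:**
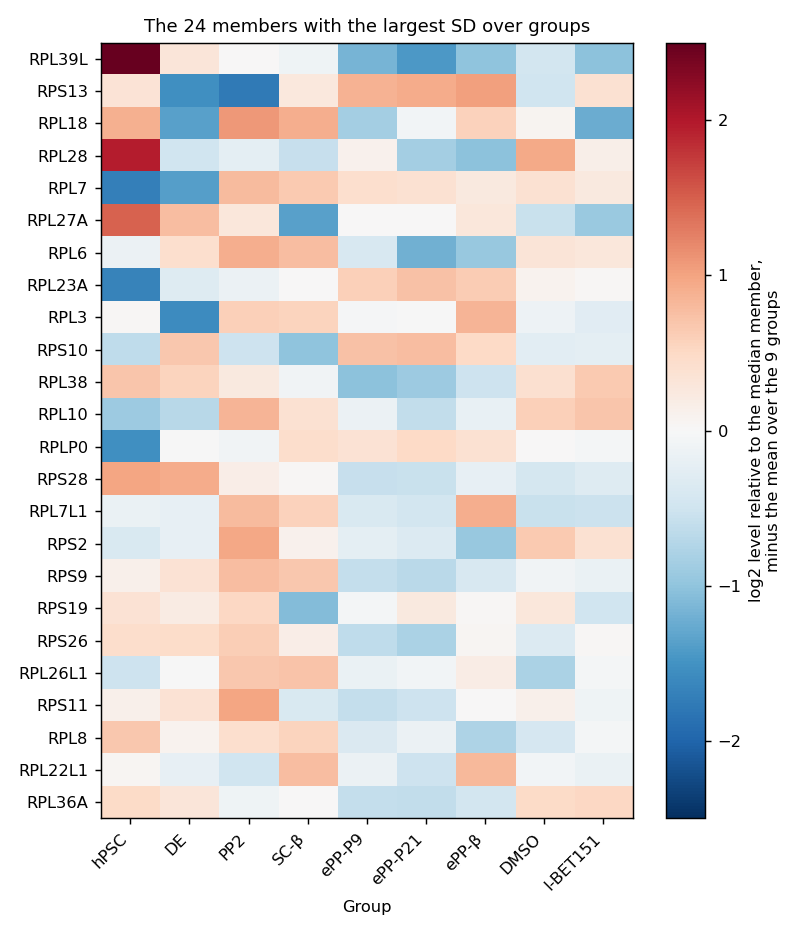
Level of 24 members relative to the median member of the same group (log2, colour, each row centred on its mean over the 9 groups), for the members with the largest SD over groups. Columns are the 9 groups, and the colour scale ends at 2.5, which RPL39L in hPSC exceeds.

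The stepwise differentiation of batch 1 was followed from hPSC through DE and PP2 to SC-β, with 1 library per stage and therefore no test. From hPSC to DE the median member hardly moved, with a log2 difference of 0.02 beside -0.04 for all genes. Beyond a log2 difference of 1, 3 of 82 members were higher (all genes 10.8%) and 6 were lower (all genes 16.1%). From DE to PP2 the median member differed by -0.99, while the median of all genes differed by 0.38. Here 41 members were lower beyond 1 (all genes 9.83%) and 3 were higher (all genes 27.2%).

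From PP2 to SC-β the median member differed by -0.16, beside -0.37 for all genes. Only 3 of 81 members were lower beyond 1 (all genes 22.1%) and 2 were higher (all genes 12.7%). The 3 members above in PP2 against DE were RPL18, RPL7 and RPL3, and the member furthest below was RPS10, a 40S protein at the mRNA entry side, at 2368 TPM in DE and 478 TPM in PP2. The mesenchyme markers summed to 58.7 TPM in DE and 1587 TPM in PP2, and their part in the lower member levels of PP2 was not tested.

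Against ePP-β, SC-β stood lower in the median member by -0.73 on the log2 scale, with all genes at -0.19. A difference beyond 1 was seen in 23 of 81 members below (all genes 19.6%) and in none above (all genes 17.5%). RPL27A fell from 920.1 and 873 TPM in ePP-β to 172 TPM in SC-β, and RPS10 from 1663 and 1525 TPM to 334 TPM. The 2 groups belong to different batches, so batch and route of differentiation cannot be told apart, and the stage markers took 11.9% of SC-β against 4.54% and 4.90% of ePP-β. The mesenchyme markers summed to 2879 TPM in SC-β and to 60.3 and 47.7 TPM in ePP-β, and their part in the lower member levels of SC-β was not tested.

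The comparison of ePP-β with ePPs asked how the transcriptome changes as expanded progenitors become β-like cells, and most ribosomal protein genes were lower. Of 81 members tested, 58 were lower (all genes 28.2%) and 3 were higher (all genes 29.2%) at an adjusted p under 0.05 by limma with Benjamini-Hochberg adjustment over all 18076 genes tested. The median log2 fold change of the members was -0.49 with quartiles of -0.66 and -0.29, against -0.03 over all genes. Lower members included 28 of 32 from the 40S subunit and 30 of 49 from the 60S subunit, and the 3 higher ones were 60S members. In 59 members every ePP-β library lay below every ePP library (all genes 31.6%), and in 3 above (all genes 32.2%). Both passages had equal weight in the ePP level. The ePP medium contained I-BET151, EGF and bFGF, and the listed media of the last differentiation steps did not. Change of medium and change of cell state therefore cannot be told apart here.

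The decrease was modest in size, and only 4 of the lower members passed a log2 fold change of 1 (all genes 9.86%). RPS2, a 40S protein at the mRNA entry channel, stood at 3122, 3036, 2368 and 2751 TPM in the ePP libraries and at 1209.7 and 1165 TPM in ePP-β. Its log2 fold change was -1.24 (SE 0.08, limma adjusted p = 8.88e-05), and the groups did not overlap. RPLP1, an acidic stalk protein of the 60S subunit that recruits elongation factors, stood at 2285, 2351, 2169 and 2049 TPM in ePPs and 1092 and 1007 TPM in ePP-β (log2 fold change -1.07, SE 0.07, limma adjusted p = 8.01e-05). RPL22, an RNA-binding 60S protein, stood at 772, 840.1, 633 and 639 TPM in ePPs and at 333 and 367 TPM in ePP-β (log2 fold change -1.03, SE 0.07, limma adjusted p = 9.87e-05). In RPS2, RPLP1 and RPL22 alike, both ePP-β libraries lay below all ePP libraries and the gap exceeded the spread within either group.

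RPL8, a 60S protein at the peptidyl transferase centre, was the fourth. Its levels were 2684, 3535, 3337 and 3014 TPM in ePPs and 1741 and 1229 TPM in ePP-β (log2 fold change -1.10, SE 0.18, limma adjusted p = 0.00278). RPS25, a 40S protein used by viral internal ribosome entry sites, was more variable, at 4199.5, 2837, 3937 and 3758 TPM in ePPs and 2237 and 1760.2 TPM in ePP-β (log2 fold change -0.88, SE 0.18, limma adjusted p = 0.00736). The 3 most abundant members also fell, by 0.42 for RPS27, 0.30 for RPL41 and 0.32 for RPL13A on the log2 scale.

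Against this background 3 members rose. RPL7L1, a paralogue of RPL7 linked to ribosome assembly, stood at 69, 67.9, 52.1 and 63.7 TPM in ePPs and at 109 and 104 TPM in ePP-β (log2 fold change 0.75, SE 0.10, limma adjusted p = 0.00109). RPL22L1 stood at 148, 132, 109.9 and 83 TPM in ePPs and at 193 and 151 TPM in ePP-β (log2 fold change 0.56, SE 0.15, limma adjusted p = 0.0212), with the lower ePP-β library just above the highest ePP library. RPL3, a 60S protein near the peptidyl transferase centre, rose from 5026, 5286, 4528 and 4744 TPM to 6065 and 5869.6 TPM (log2 fold change 0.29, SE 0.07, limma adjusted p = 0.0183). RPL22L1 and RPL3 lost the call in 6 and 5 of the alternative analyses, among them the centring of each library on the median of all tested genes, with adjusted p values of 0.0973 and 0.305.

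**Figure D3:**
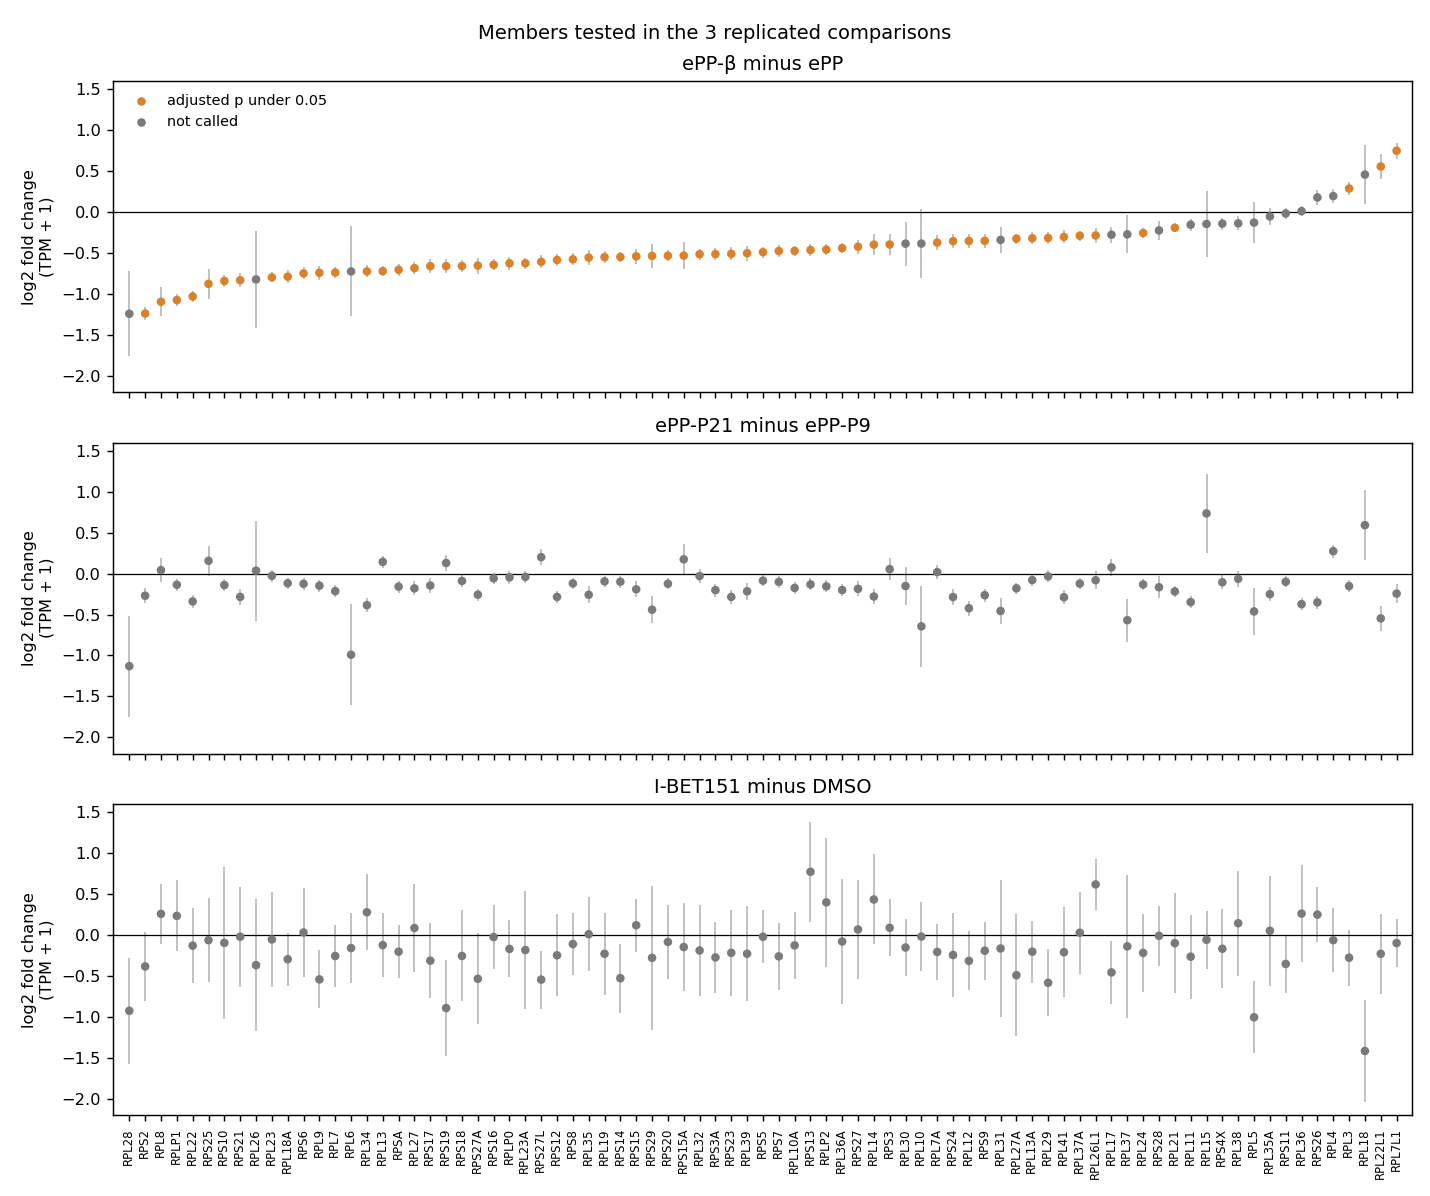
Log2 fold change on log2(TPM + 1) (y axis, error bars the SE) of 81 members (x axis) in ePP-β against ePP (top), ePP-P21 against ePP-P9 (middle) and I-BET151 against DMSO (bottom), in the order of the top panel, with members at an adjusted p under 0.05 in orange. Orange points appear in the top panel alone, 58 below 0 and 3 above, and the error bars are widest in the bottom panel.

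Several members were far below in the mean but did not pass the test, and their ePP libraries differed from one another. RPL28 stood at 1221 TPM in ePP-P9 replicate 1 and at 296, 262 and 287 TPM in the other ePP libraries, with 174 and 168 TPM in ePP-β (log2 fold change -1.24, SE 0.52, limma adjusted p = 0.0861). The log2 fold change of RPL28 was -0.73 without ePP-P9 replicate 1. It was -1.75 without ePP-P9 replicate 2, where the library at 1221 TPM alone stood for ePP-P9. Both fits left 1 library in ePP-P9, so only the effect size is given. RPL26 and RPL6 were similarly uneven and had log2 fold changes of -0.82 and -0.73, with limma adjusted p values of 0.276 and 0.302.

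The size of the group of calls depended on how libraries were scaled and which libraries shared the fit. With quantile normalization 35 members were lower (43.2%, all genes 37.2%) and 6 higher (all genes 26.5%), and the median member of -0.24 lay near the -0.19 of all genes. After rescaling to the TPM outside the 12 stage markers 48 were lower (59.3%, all genes 25.9%) and 4 higher (all genes 31.6%), and in a fit of all 10 replicated libraries 13 of 82 were lower (15.9%, all genes 15.3%) and 1 higher (all genes 21.2%). Under quantile normalization and in the fit of all 10 libraries the share of lower members was thus near that of all genes. In the fit of all 10 libraries the median member nevertheless stood at -0.48, beside -0.02 for all genes.

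Measured against the median member instead of the whole library, the members separated in both directions. In libraries centred on the median ribosomal protein gene, 23 of 81 members were higher (all genes 51.5%) and 6 were lower (all genes 8.27%). Above the median member were RPL7L1 by 1.34, RPL22L1 by 1.15, RPL3 by 0.88, RPL4 by 0.79 and RPS26 by 0.77 on the log2 scale. RPL4, a 60S protein of the exit tunnel, and RPS26, a 40S protein at the mRNA exit, had limma adjusted p values of 0.000752 and 0.000434. Below it were RPS2 by -0.65, RPLP1 by -0.48, RPL22 by -0.44, RPS10 by -0.25 and RPS21 by -0.24, and RPL8, whose relative levels overlapped between the groups, by -0.50. This centring adds the same 0.59 to the log2 fold change of every gene, more than the median member fold change of -0.49 in size. The median fold change of the members thus became 0.10, and the counts and values above lean upward by as much. RPS27, RPL41 and RPL13A, which fell less than the median member, stood at 0.17, 0.29 and 0.27.

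The medians of members with and without the TOP motif at the start lay close together, but the quartiles did not. They were -0.66 and -0.32 with the motif and -0.55 and -0.14 without it. Beside the 28.2% lower and 29.2% higher among all genes, 37 of the 47 members with the motif were lower and 1 was higher, with a median log2 fold change of -0.46. Of 19 tested members without it, 10 were lower and 2 higher, with a median of -0.47. The 2 higher ones without the motif were RPL3 and RPL7L1. At its listed start RPL3 had a run of 4 bases, under the minimum of 5. The split rests on annotated starts and this minimum, so it cannot separate TOP mRNAs from others.

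Other lists of translation genes are given beside the same shares of all genes, 28.2% lower and 29.2% higher. Of 75 ribosome assembly factors, 51 were lower and 6 higher, with a median log2 fold change of -0.65. RRP12, a factor of 40S and 60S export, stood at 36.4 ± 2.64 TPM in ePPs (SD, n = 4) and 12.4 ± 0.895 TPM in ePP-β (SD, n = 2), while SBDS, which frees new 60S subunits for use, stood at 55.0 ± 1.93 TPM in ePPs and 107 ± 1.36 TPM in ePP-β. The log2 fold changes of RRP12 and SBDS were -1.47 and 0.95. POLR1G, a subunit of RNA polymerase I, and RRP9, a factor bound to the U3 snoRNA, fell by 1.50 and 1.40 on the log2 scale, and RIOK2 and NMD3, which act in late 40S maturation and 60S export, rose by 1.25 and 0.94.

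Among 21 translation factors and partners known as TOP mRNAs, 15 were lower (all genes 28.2%) and 1 was higher (all genes 29.2%), with a median of -0.45. The elongation factor EEF2 stood at 3092 ± 95.4 TPM in ePPs (SD, n = 4) and 1351 ± 84.4 TPM in ePP-β (SD, n = 2), a log2 fold change of -1.20. EEF1D and VIM, an elongation factor subunit and the filament protein vimentin, fell by 2.16 and 1.64 on the log2 scale, and EIF3K, an initiation factor subunit, rose by 0.34. Of 77 mitochondrial ribosomal protein genes 23 were lower, a share near the 28.2% of all genes, and 13 were higher (all genes 29.2%), with a median of -0.16. MRPS6, MRPL4 and MRPL10 were the furthest below (log2 fold changes -1.16, -0.94 and -0.90) and MRPL15, MRPS11 and MRPL35 the furthest above (0.89, 0.76 and 0.68).

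Of 14 snoRNA host genes, whose introns carry the guide RNAs that modify ribosomal RNA, 6 were lower (all genes 28.2%) and 1 was higher (all genes 29.2%). SNHG3, SNHG1 and EPB41L4A-AS1 fell by 1.62, 1.25 and 0.62 and SNHG32 rose by 0.50 on the log2 scale. In a list of 15 genes that control translation or transcription of ribosomal protein genes, 8 were lower (all genes 28.2%) and 2 higher (all genes 29.2%). MYC, a transcription factor of ribosome production, stood at 136 ± 23.4 TPM in ePPs (SD, n = 4) and 17.8 ± 0.345 TPM in ePP-β (SD, n = 2), whereas its relative MYCN stood at 13.2 ± 2.46 and 32.6 ± 0.204 TPM. Their log2 fold changes were -2.85 and 1.25. MYCL and RPTOR, a subunit of the mTOR complex 1, fell by 1.03 and 0.84, and RHEB, the activator of that complex, rose by 0.60.

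Proliferation markers moved in the same direction, with 10 of 10 lower in ePP-β (all genes 28.2%). Their sum ranged from 1005 to 1179 TPM in the ePP libraries and was 359 and 371 TPM in ePP-β. In SC-β it was 232 TPM, beside a member share of 9.76%. The sum and the share did not go together in every library. In PP2 the sum was 1281 TPM at a member share of 10.9%, and in DMSO replicate 2 it was 528 TPM at 27.8%. AURKB, TYMS and BIRC5 fell by 2.27, 1.89 and 1.76 on the log2 scale. Of 9 stage markers tested, GCG, INS, CHGA, CXCR4 and SOX2 were higher (all genes 29.2%) and PDX1, SOX9 and NKX6-1 lower (all genes 28.2%). Of 7 mesenchyme markers tested, POSTN and PDGFRB were lower, a share near the 28.2% of all genes, and TWIST1 was higher (all genes 29.2%). The part of cell division and of the hormone transcripts in the lower member levels was not tested beyond the rescaling above.

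The comparison of I-BET151 with DMSO asked what 7 days of the inhibitor changed in pancreatic progenitors. No ribosomal protein gene was called in the main fit, which left out the replicate number. Of 82 members tested by limma, 0 were higher (all genes 0.00599%) and 0 were lower (all genes 0.204%) at an adjusted p under 0.05, and at an unadjusted p under 0.05 as well 0 were higher (all genes 6.21%) and 0 lower (all genes 8.98%). The smallest adjusted p was 0.349, for RPL39L. The median member had a log2 fold change of -0.16 and all genes 0.16, and 64 of 82 members were negative (all genes 39.1%). Groups did not overlap for 10 lower members (all genes 18%) and for 1 higher member (all genes 28.7%). With the replicate number as a block, 1 of 82 members was higher (all genes 8.85%) and 1 lower (all genes 10.3%). The main fit called few genes of any kind, so its lack of member calls does not show that members were unchanged.

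Both groups of batch 3 varied more within than between. The median member was higher in replicate 2 than in replicate 1 by 0.62 in DMSO and by 0.83 in I-BET151 on the log2 scale, while other genes at 100 TPM or more had medians of -0.11 and -0.15. RPS27 stood at 8197 and 14917 TPM in DMSO and 7285 and 18458 TPM in I-BET151, and RPL41 at 7883 and 12761 TPM in DMSO and 5759.5 and 13069 TPM in I-BET151. In both genes each second replicate exceeded both first replicates. Leaving out 1 library at a time gave medians from -0.59 to 0.24, with the sign turning when DMSO replicate 2 (0.13) or I-BET151 replicate 1 (0.24) was left out.

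The comparison of ePP-P21 with ePP-P9 asked whether long expansion altered the progenitors. Of 81 members tested by limma, 0 were higher (all genes 1.82%) and 0 lower (all genes 0.133%) at an adjusted p under 0.05. At an unadjusted p under 0.05, 25 were lower (all genes 3.91%) and 1 was higher (all genes 19.1%). The median member had a log2 fold change of -0.15 and all genes 0.13. In 54 members both ePP-P21 libraries lay below both ePP-P9 libraries (all genes 13.1%), and in 4 above (all genes 41.3%).

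Relative to the median member, 1 member was higher in ePP-P21 (all genes 10.2%), RPL4, which had 1178 and 1303 TPM in the ePP-P9 replicates and 1527 and 1469 TPM in those of ePP-P21. Its relative log2 fold change was 0.42 (limma adjusted p = 0.0480). Without ePP-P9 replicate 2 the counts were 3 lower (all genes 0.291%) and 1 higher (all genes 4.01%), where the residual spread came from ePP-P21 alone and the remaining ePP-P9 library was assumed to vary alike. RPL28 was among the lower there (-2.15), set by its 1221 TPM in the library that remained against 296 TPM in the one left out. In the other lists, MRPS25, MPHOSPH10, SNHG12 and SNHG1 were higher in ePP-P21, by 0.87, 0.68, 1.65 and 0.78 on the log2 scale, and no gene of the lists was lower. In the I-BET151 comparison LUM, a matrix gene of fibroblasts, was the only called gene of the lists, with a log2 fold change of -3.37.

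Relative to the median member of each group, most members varied little between the 9 group means. The SD over the group means of the log2 relative level had a median of 0.35, and 64 of 82 members with at least 10 TPM in some group had an SD under 0.5. Group means hide differences between replicates, and RPL26 (SD 0.38) stood at 0.77 and -0.84 relative to the median member in the ePP-P9 replicates and RPL15 (SD 0.34) at -2.10 and -0.44. The steadiest was RPS12, a 40S protein, between 0.83 and 0.97 above the median member in all groups, and it was picked out after its values were seen.

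The members with the largest SD were RPL39L, RPS13, RPL18, RPL28 and RPL7. RPL39L led with an SD of 1.92, and its levels are given with the pairs below. RPS13, a 40S protein bound to the central domain of the ribosomal RNA, had an SD of 1.05. Its levels were 1821 TPM in hPSC, 501 TPM in DE, 197 TPM in PP2 and 793 TPM in SC-β, against 2895 to 3323 TPM in the ePP libraries and 2346 and 2151 TPM in ePP-β. In DMSO it stood at 1842 and 818 TPM and in I-BET151 at 1386 and 3175 TPM, so the treated groups overlapped.

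RPL7, a 60S protein, had an SD of 0.90. It was low in hPSC at 527 TPM and DE at 674 TPM, rose to 1418 TPM in PP2, and lay between 2417 and 2890.1 TPM in the ePP libraries. In SC-β it stood at 1243 TPM, and in ePP-β at 1617 and 1537 TPM. Its ePP-β level lay above that of hPSC and DE and below that of ePPs (log2 fold change -0.74, limma adjusted p = 0.000261).

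RPL18 and RPL28, both 60S proteins, varied between groups and also between replicates of one group. RPL18 (SD 0.95) stood at 3048 TPM in hPSC, 647 TPM in DE and 1641 TPM in PP2, and at 1046 and 2749.6 TPM in the ePP-P21 replicates. In I-BET151 its replicates stood at 1284 and 475 TPM. RPL28 (SD 0.94) fell from 1770.2 TPM in hPSC to 327 TPM in DE and 180.4 TPM in PP2, with 139 TPM in SC-β.

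Paralogue pairs were compared by the log2 ratio of the second gene to the first in each library, taken on TPM plus 1 and not tested. Coding sequences of the pairs were 57.6% to 94.8% identical, so that reads can pass from one to the other most easily for RPL39 and RPL39L at 94.8%, and least for RPL7 and RPL7L1 at 57.6%. RPL22 and RPL22L1 were 67.9% identical, RPL3 and RPL3L 75.6%, RPS27 and RPS27L 77.8%, RPL26 and RPL26L1 84.1%, and RPL10 and RPL10L 89.3%.

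Between ePPs and ePP-β the balance changed most, of the 8 pairs, for RPL22L1 and RPL7L1 with their partners. RPL22L1 made up 15.3% of its pair's TPM in hPSC, 13.6% in DE and 11.9% in PP2. It made up between 11.5% and 16.1% in the ePP libraries, and 29.2% and 36.6% in ePP-β. In SC-β the share was 30.8%, close to ePP-β although the batches differ. The DMSO libraries lay between 15.3% and 19.0% and the I-BET151 libraries between 15.6% and 16.6%. The log2 ratio was -2.62 ± 0.24 in ePPs (SD, n = 4) and -1.03 ± 0.34 in ePP-β (SD, n = 2), a difference of 1.59 with no overlap. A protein-coding gene on the same strand overlaps RPL22 (ENSG00000285629) and stood at a mean of 754 TPM beside 599 TPM for RPL22. With it counted together with RPL22, a step chosen after the values were seen, RPL22L1 made up 6.56% to 9.21% in the ePP libraries, 21.9% and 17.4% in ePP-β and 14.4% in SC-β.

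For RPL7L1 the log2 ratio differed by 1.49 between ePP-β and ePPs, from -5.37 ± 0.13 (SD, n = 4) to -3.88 ± 0.00652 (SD, n = 2). Its share of the pair was 2.07% to 2.57% in the ePP libraries and 6.29% and 6.33% in ePP-β. It was higher still in hPSC at 11.0% and DE at 8.64%, where RPL7 was low, and stood at 3.84% in SC-β. The level of RPL7L1 itself lay between 49.7 and 69 TPM in all libraries outside ePP-β.

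**Figure D4:**
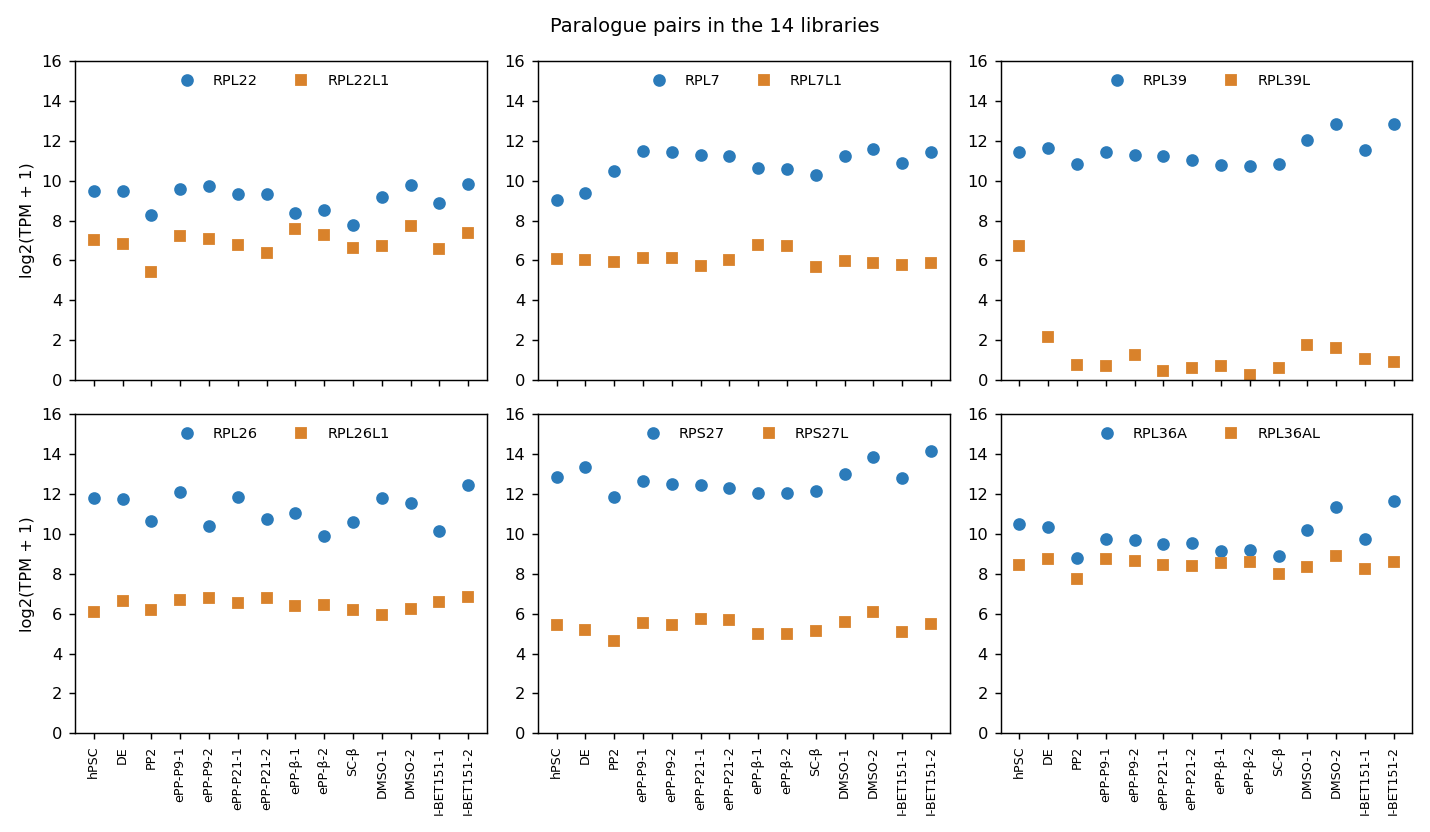
Level of the first and second gene of each pair (y axis, log2 of TPM + 1) in every library (x axis), 1 panel for each of 6 pairs. RPL22L1 and RPL22 come closest in ePP-β and SC-β, and RPL39L leaves the baseline in hPSC.

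RPL39L, an RPL39 paralogue known from testis and from stem and cancer cells, was nearly confined to the undifferentiated library. It stood at 104 TPM in hPSC, 3.5 TPM in DE and 0.705 TPM in PP2. In the ePP libraries it lay between 0.376 and 1.4 TPM, in ePP-β at 0.605 and 0.197 TPM, in SC-β at 0.523 TPM, and in batch 3 between 0.851 and 2.39 TPM. It made up 3.64% of the pair in hPSC and 0.109% in DE, while RPL39 itself stood at 2761 and 3214 TPM. With 1 library each, the gap between hPSC and DE has no replicate behind it.

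The ratios of RPS27L and RPL26L1 to their partners overlapped between ePPs and ePP-β. RPS27L, a paralogue of RPS27 induced by p53, made up between 0.239% and 0.967% of its pair and was higher relative to RPS27 in both ePP-P21 than in both ePP-P9 libraries, by 0.39. RPL26L1 lay between 60.4 and 113 TPM throughout, so its ratio to RPL26 moved with RPL26, from -5.40 to -3.63 within ePP-P9 alone. RPL3L and RPL10L stayed under 1 TPM in every library, and their ratios carry the pseudocount and are not read further.

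RPL36AL, on chromosome 14 and not itself a member by the symbol form, encodes a protein nearly identical to that of RPL36A on the X chromosome, with coding sequences 89.9% identical. It stood at 375 ± 39.6 TPM in ePPs (SD, n = 4) and 380.2 ± 6.15 TPM in ePP-β (SD, n = 2). Its log2 fold change was 0.02 (limma adjusted p = 0.752). RPL36A stood at 859.6, 835, 719.5 and 755 TPM in ePPs and at 571 and 593 TPM in ePP-β (log2 fold change -0.44, SE 0.06, limma adjusted p = 0.00141). The share of RPL36AL in the pair therefore went from between 30.8% and 32.9% to 39.3% and 39.7%. A readthrough gene on the same strand that overlaps RPL36A (RPL36A-HNRNPH2) was not counted, and the shares would be lower with it. It stood at 973, 960, 818 and 878 TPM in ePPs and at 664 and 668 TPM in ePP-β. In batch 3 the DMSO replicates of RPL36A had 1193 and 2589.7 TPM and the I-BET151 replicates 860.3 and 3221 TPM, again with both second replicates high.

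Some members jumped between replicates of one group while the rest did not. Among members at 100 TPM or more, 5 of 79 in ePP-P9 differed between replicates by more than 1 log2 unit from the median member (6.33%, against 0.522% of other genes at that level). The counts were 3 of 78 in ePP-P21 (3.85%, other genes 0.489%), 1 of 79 in ePP-β (1.27%, other genes 1.08%), 8 of 78 in DMSO (10.3%, other genes 13.5%) and 16 of 79 in I-BET151 (20.3%, other genes 24.9%). In all 23 members jumped in at least 1 group, a total with no share of other genes beside it. In DMSO and I-BET151 the members jumped less often than other genes.

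RPL26, which jumped in 4 groups, had 4414 and 1365 TPM in the ePP-P9 replicates, 3693 and 1715 TPM in those of ePP-P21, 2089 and 945 TPM in those of ePP-β, and 1117 and 5666 TPM in those of I-BET151. An overlapping gene on the same strand (ENSG00000263809) stood at 616, 580.3, 522 and 578 TPM in the same ePP libraries. RPL6 stood at 4268 TPM in ePP-P9 replicate 1 and at 1037, 1005 and 1114 TPM in the other ePP libraries, while its pseudogene RPL6P27 stood at 247, 238, 217 and 248 TPM. In the ePP libraries neither the overlapping gene nor the pseudogene jumped with these members, and RPL6 was chosen after its values were seen.

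RPS10 had 761 and 2896 TPM in the DMSO replicates and 689.6 and 2802 TPM in those given I-BET151. The readthrough gene RPS10-NUDT3, on the same strand and overlapping RPS10, stood at 324, 316, 277 and 307 TPM in these 4 libraries. By contrast, the readthrough gene RPL36A-HNRNPH2 stood at 1135, 2588, 1027 and 3092 TPM there, next to RPL36A values of like size. Altogether 11 members were overlapped by another gene that reached 100 TPM in some library, 8 of them on the same strand. How the authors' counting divides reads between such genes is not given in the sources used here, so the levels of these members are uncertain.

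**Figure D5:**
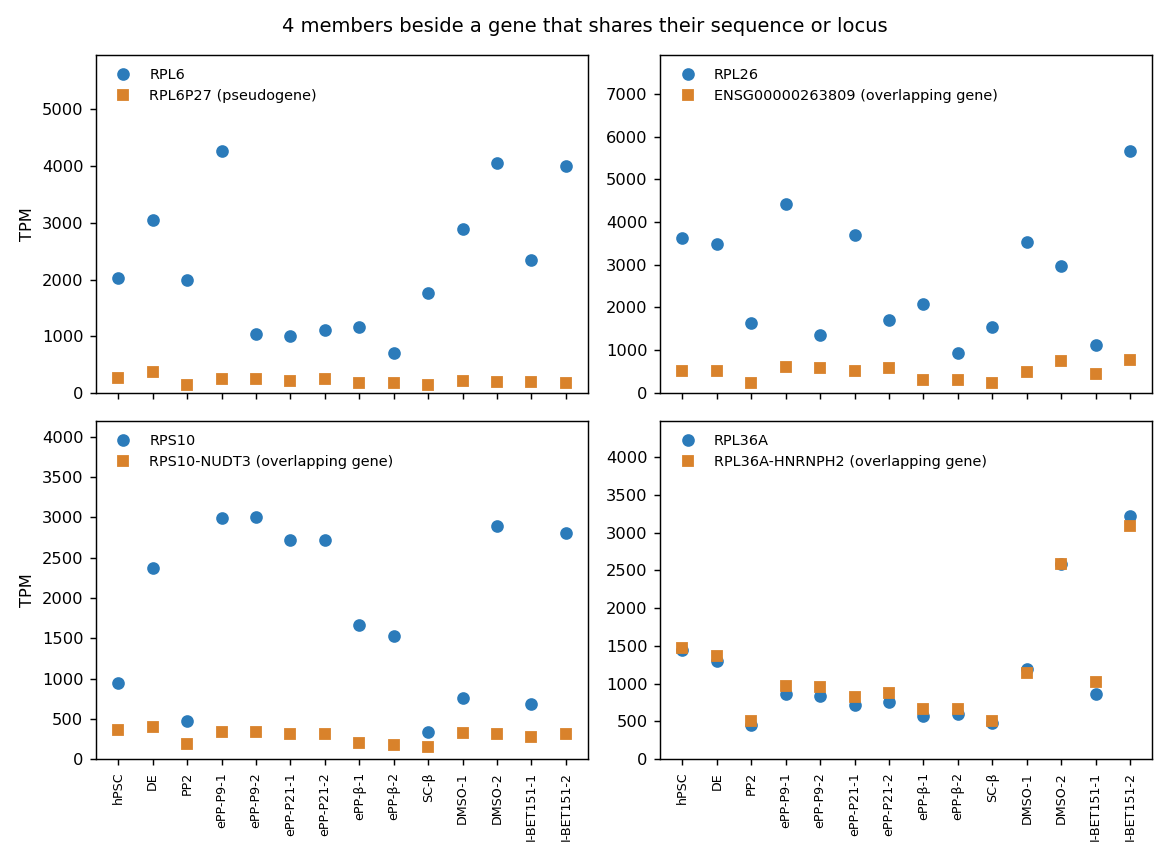
TPM (y axis) of 4 members (circles) and of an overlapping gene or pseudogene of each (squares) in every library (x axis, -1 and -2 for replicates). RPL6, RPL26 and RPS10 differ between replicates of some groups far more than their partner does, whereas RPL36A and RPL36A-HNRNPH2 nearly coincide.

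Processed pseudogenes, copies of a spliced mRNA pasted back into the genome, are frequent for these genes, and 1605 were annotated under the name of a member. Of the 1604 listed, 241 reached 1 TPM in some library and 618 were at 0 in every library. For 54 of 82 members with a mean of at least 1 TPM, pseudogenes made up less than 5% of the summed TPM of gene and copies, and for 7 more than 20%. The extreme was RPS28, a small 40S protein, at a mean of 232 TPM over libraries beside 2595 TPM for its pseudogene RPS28P7 (chr11:82689559-82689768), so that copies made up 91.8%. For RPL21, RPS2, RPL36A and RPL10 the share was 45.7%, 40.7%, 40.3% and 32.1%.

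With gene and copies summed, 59 members were lower (all genes 28.3%) and 3 higher (all genes 29.4%) in ePP-β. These included all of the 58 and the 3 of the genes alone. By this sum RPS28 passed the test (log2 fold change -0.35, limma adjusted p = 0.0126), which the gene alone had not (-0.22, limma adjusted p = 0.147). RPS2 and its most abundant copy RPS2P5 fell together, RPS2P5 standing at 1557, 1462, 1289 and 1126 TPM in ePPs and at 671 and 588 TPM in ePP-β. Whether such values are reads of the copy or reads of the gene assigned to it cannot be told apart from TPM.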

How the data were processed

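The authors purified RNA on columns, prepared NEBNext Ultra libraries and read both fragment ends by Illumina sequencing. They aligned reads to GRCh38 (HISAT2 version 2.1.0 per the labels), assembled transcripts with StringTie and summed them per gene. The deposited values are TPM per Ensembl gene. The annotation release, the use of strand and the treatment of multiply mapping reads are not given in the sources used here. The study tested counts with DESeq2, which TPM do not allow.

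Identifiers were matched to GENCODE 44 (60370 of 60624). Genes reaching 1 TPM in 2 or more libraries of a fit were tested on log2(TPM + 1) with limma 3.58.1 (trended empirical Bayes, two-sided, R 4.3.3) and adjusted by Benjamini-Hochberg over all genes tested, with a threshold of 0.05. Only libraries of the compared groups entered a fit, all of 1 batch. Fold changes are on the log2(TPM + 1) scale, which understates changes of low genes. The share of a library and the paralogue ratios had no test. Reference tables were read with Python 3.11.15 and pandas 2.3.3, and coding sequences were aligned with Biopython 1.88. The fit was tested on simulated data. TPM keep no read depth, so no precision from depth is given.

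The members and lists were chosen with earlier results of these data known. Named genes were all members of pairs, the 3 highest and 3 lowest, up to 5 called and non-overlapping members per direction and comparison with the largest fold change (also relative to the median member), the 5 with the largest SD of relative level, those listed at 0, the 5 with the largest share of pseudogenes, and up to 3 genes per list and direction. Other members named for stages, replicate jumps, copies or the block, and further called markers, were chosen after their values were seen. Alternatives were other pseudocounts, filters, scalings, sample sets, a replicate block and leaving out each library.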

Additional observations from a re-analysis of the deposited data

How the results depend on the processing

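Depth is unknown for TPM, so what it limits cannot be stated. In ePP-β against ePPs 58 members were lower (all genes 28.2%) and 3 higher (all genes 29.2%). When 1 library was left out, the median member lay between -0.53 and -0.46 (all genes -0.15 to 0.0067). A group left with 1 library was assumed to vary like the others. Without a filter on low values 45 of 83 members were lower (all genes 11.6%) and 1 was higher (all genes 17%). Centring on the median of all tested genes gave 1 higher (all genes 25.8%) and 59 lower (all genes 35.5%). The median member was then -0.63 in place of -0.49. Rescaling to the TPM of the other genes gave 1 higher (all genes 26%) and 61 lower (all genes 31.8%, median -0.60). Quantile normalization gave 6 higher (all genes 26.5%) and 35 lower (all genes 37.2%), with a median of -0.24. Centring on the median ribosomal protein gene gave 23 higher (all genes 51.5%) and 6 lower (all genes 8.27%), with a median of 0.10. The fit of all 10 replicated libraries gave 1 higher (all genes 21.2%) and 13 lower (all genes 15.3%). A log2 fold change beyond 1 gave 0 higher (all genes 17.9%) and 4 lower (all genes 9.86%). Centring on the median ribosomal protein gene adds 0.59 to every fold change by construction, more than the median member fold change of -0.49 in size. Under it the fold changes of RPL39 (0.088), RPS27 (0.17), RPL36A (0.15), RPL26L1 (0.31), RPL41 (0.29), RPL13A (0.27), RPS13 (0.13) and RPL21 (0.40) turned positive. Pseudocounts of 0.1 and 0.01, a filter of 5 TPM, the addition of pseudogenes and the rescaling outside the stage markers kept the 3 higher calls. Between 48 and 58 of the lower ones were kept as well. Over all genes these fits called 28% to 31.6% higher and 25.9% to 35.1% lower. The rescaling was added after seeing the data.

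For ePP-P21 against ePP-P9, the median member of -0.15 became -0.36 after centring on the median of all tested genes and -0.029 after quantile normalization. It became -0.00183 after centring on the median ribosomal protein gene, which gave 1 higher call (all genes 10.2%). Leaving out 1 library gave medians from -0.19 to -0.13 (all genes 0.07 to 0.19). For I-BET151 against DMSO, the fold change of RPL18 was -2.13 without I-BET151 replicate 1. Leaving out 1 library there gave medians from -0.59 to 0.24 (all genes 0.10 to 0.19). The summed share differed by -7.29 to 3.66 percentage points. The causes were not tested.

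Replicate numbers were shared by title alone, with 2 pairs per comparison. Deviations from the group means correlated between DMSO and I-BET151 (r = 0.675 across 16687 genes, which are not independent) and not between ePP-P9 and ePP-P21 (r = -0.00933). With the replicate number as a block, 1 of 82 members was higher for I-BET151 (RPL26L1, 0.62), or 1.22% beside 8.85% of all genes. Also 1 was lower (RPS19, -0.89), or 1.22% beside 10.3% of all genes. For ePP-β 3 members were higher (all genes 29.3%) and 61 lower (all genes 28.8%). The block leaves the fitted fold changes as they are by construction and alters their errors.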
